A study of Mus musculus with 4 samples.

Results

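Lpl and 6 genes of mitochondrial fatty acid oxidation, Hadh, Hadha, Hadhb, Acadm, Acadl and Cpt1a, were described across the cells of dispersed mouse pancreatic islets. They are 7 of 32285 genes in the count matrix, picked by symbol and chosen because their levels had differed between cell types or libraries in these same data. Their levels by class and library are therefore a description, without a test.

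The samples were 2 of Xbp1 beta-/- mice, in which the floxed allele had been deleted in beta cells, and 2 of Xbp1fl/fl mice. Both genotypes received tamoxifen, were 5 weeks old and, per the series title, were NOD mice, a strain that develops autoimmune diabetes. After collagenase and protease digestion the islets were picked by hand, cultured until the next day and split into single cells with accutase for 10x libraries. The labels do not name the driver of the tamoxifen-inducible Cre or say whether the floxed mice carried it.

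All cells were deposited in 1 matrix with 4 libraries, marked by the number at the end of each barcode. No number could be tied to a sample, so no genotype was compared, the libraries were not treated as replicates of a group, and their numbers carry no order. Of 19987 barcodes, 16146 passed a filter of 500 or more detected genes and no more than 20% of unique molecular identifiers (UMIs) from mitochondrial genes. Library totals were 82963911 to 178396311 UMIs. Another 45 barcode sequences occurred in 2 libraries each.

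Beta cells had Ins2 at 5% of UMIs or more (6885 cells), alpha cells Gcg at 5% or more (2046) and delta cells Sst at 3% or more (1383), and cells past several of these gates (631) were kept apart. Beta cells were split at Spp1 of 0.5% into 1082 Spp1-high and 5803 Spp1-low cells. In libraries 1 to 4, 355, 131, 377 and 219 beta cells were Spp1-high, against 234, 3211, 356 and 2002 Spp1-low cells. Non-endocrine cells (4607) passed no gate and carried markers of other types. Levels are UMIs scaled to a common total (CPM), that total being those outside 7 islet hormone genes, summed over a class in each library. The sums are given with exact 95% Poisson intervals, which cover counting error only. Doublets were not called.

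The classes carried their markers beyond the hormones used to choose them. All 5 remaining beta markers averaged at least 20 CPM in both beta classes, as did all 6 alpha markers in alpha cells and 3 of 4 delta markers in delta cells. Beta cells of libraries 1 and 3 also carried Ttr, the thyroid hormone carrier on the alpha list. Ttr stood at 4297, 247, 4258 and 255 CPM in Spp1-high cells of libraries 1 to 4, and at 4888, 7427, 6369 and 7443 CPM in alpha cells. Acinar markers reached 9807 CPM in Spp1-high cells of library 1 and at most 15.2 CPM in those of the other libraries, and 4555 CPM in delta cells of library 1. Plasma cell markers reached 1705 CPM in alpha cells of library 1 and 1347 CPM in delta cells of library 3. Macrophage markers summed to 350, 205, 266 and 215 CPM in delta cells of libraries 1 to 4, and to 241 CPM in alpha cells of library 1. C1qa made up 204, 190, 151 and 200 CPM of the delta cell sums. The part of these foreign transcripts in the levels of the 7 genes was not tested.

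Lipoprotein lipase, the product of Lpl, splits the triglycerides of circulating lipoproteins and so supplies fatty acids to nearby cells. Long fatty acids enter mitochondria as carnitine esters through the gate that Cpt1a encodes. There they are shortened in repeated rounds of dehydrogenation by acyl-CoA dehydrogenases, hydration, a second dehydrogenation and cleavage. In beta cells this route is kept low when glucose is plentiful, and loss of Hadh in humans and mice is known for excess insulin release.

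The promoters are shown for Hadh, which was higher in beta than in alpha cells of every library, and for Hadhb, whose window is largely shared with its neighbour and partner Hadha. Each is the 250 bases before the RefSeq start, in build GRCm38.p6, with capitals marking the GC box GGGCGG or its reverse complement CCGCCC. Hadh lies at chr3:131272102-131272351 on the minus strand and Hadhb at chr5:30155003-30155252 on the plus strand.
Hadh: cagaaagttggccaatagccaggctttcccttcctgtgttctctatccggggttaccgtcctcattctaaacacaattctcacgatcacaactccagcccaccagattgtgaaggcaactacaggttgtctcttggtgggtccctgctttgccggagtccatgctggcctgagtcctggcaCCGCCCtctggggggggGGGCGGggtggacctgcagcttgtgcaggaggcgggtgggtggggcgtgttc
Hadhb: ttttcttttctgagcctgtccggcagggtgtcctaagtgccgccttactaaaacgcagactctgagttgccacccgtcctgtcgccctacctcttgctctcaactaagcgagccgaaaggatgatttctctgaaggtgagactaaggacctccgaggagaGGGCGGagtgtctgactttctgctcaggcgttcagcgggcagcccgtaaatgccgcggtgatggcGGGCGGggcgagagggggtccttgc

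RefSeq held such a window for 6 of the 7 genes. The RefSeq starts of Hadha and Hadhb lie 273 bases apart and point away from each other, so the Hadhb window read backwards is most of the Hadha window. The GENCODE coordinates given below differ, and there Hadha reaches to 30155162, inside the Hadhb window. The GC box, searched on both strands, was in 5 of the 6 windows, all but that of Acadm, and in 32.7% of all 32851 windows of this length. The only match in the Hadha window is a site that the Hadhb window also holds, so it is counted for both genes. The 6 windows were 58.8% to 68.0% G or C, against a median of 52.4% over all windows. The nuclear receptor half-site AGGTCA was in the windows of Acadm and Cpt1a and in 14% of all windows. CCAAT was in those of Hadh and Cpt1a and in 33.8% of all, and TATAAA was in none of the 6 and in 12.4% of all. These matches describe letters only.

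Lpl (ENSMUSG00000015568, GRCm38 chromosome 8, 68880491 to 68907448, plus strand) stood far apart between cell types. It was high in alpha cells of all 4 libraries, low in beta cells of libraries 1 and 3, intermediate in beta cells of libraries 2 and 4, and close to absent from most delta cells. In Spp1-high beta cells Lpl stood at 26.7, 134, 28.1 and 173 CPM in libraries 1 to 4. Spp1-low beta cells held 40.9, 260.0, 50.5 and 218 CPM. Alpha cells held 663, 1107, 707 and 1026 CPM, so the lowest alpha value was above every beta value.

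Within each library, the log2 ratio of beta over alpha cells, with 10 CPM added to each level, was -4.01, -2.08, -3.88 and -2.22, with a median of -3.05. This median lies between a pair of near -4 and a pair of near -2, and was -2.22 when library 1 or 3 was left out and -3.88 when library 2 or 4 was. Of the 7 genes, Lpl alone was lower in beta cells by 2-fold or more in every library, as were 2.74% of 7166 genes. The choice of genes used this comparison, so nothing is read from that count.

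The share of single cells with Lpl followed the same order after each cell was thinned to 5000 non-hormone UMIs. It was 10.6%, 41.9%, 10.1% and 53.4% in Spp1-high beta cells (27.6%, 70.2%, 29.4% and 77.6% before thinning). It was 12.2%, 60.3%, 14.2% and 56.4% in Spp1-low beta cells (27.4%, 83.4%, 33.1% and 81.4% before). Alpha cells had 88.0%, 95.1%, 88.3% and 95.6% (90.9%, 96.2%, 88.9% and 97.5% before). In T cell-like cells of library 1, which should lack the lipase, 0 of 68 thinned cells had a UMI, with an upper 95% bound of 5.28%. Thinning left out 103 of the 171 T cell-like cells there, and 0.585% of the 171 had Lpl before it. The median depth was 4227 non-hormone UMIs in those T cell-like cells, against 16100 to 28251 in the beta classes. Thinning left out 25, 7, 30 and 13 Spp1-high cells, 21, 265, 47 and 129 Spp1-low cells and 60, 157, 58 and 107 alpha cells.

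Transcripts carried over from other cells were gauged by hormone. Ins2 had a median of 0.0720%, 1.27%, 0.0922% and 0.631% of the UMIs of alpha cells in libraries 1 to 4. If Lpl accompanied Ins2 into alpha cells as it did in beta cells, it would give 0.164, 5.52, 0.499 and 2.49 CPM there. If Lpl accompanied Gcg into beta cells as in alpha cells, it would give 1.07 to 8.81 CPM over the libraries and both beta classes.

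**Figure D1:**
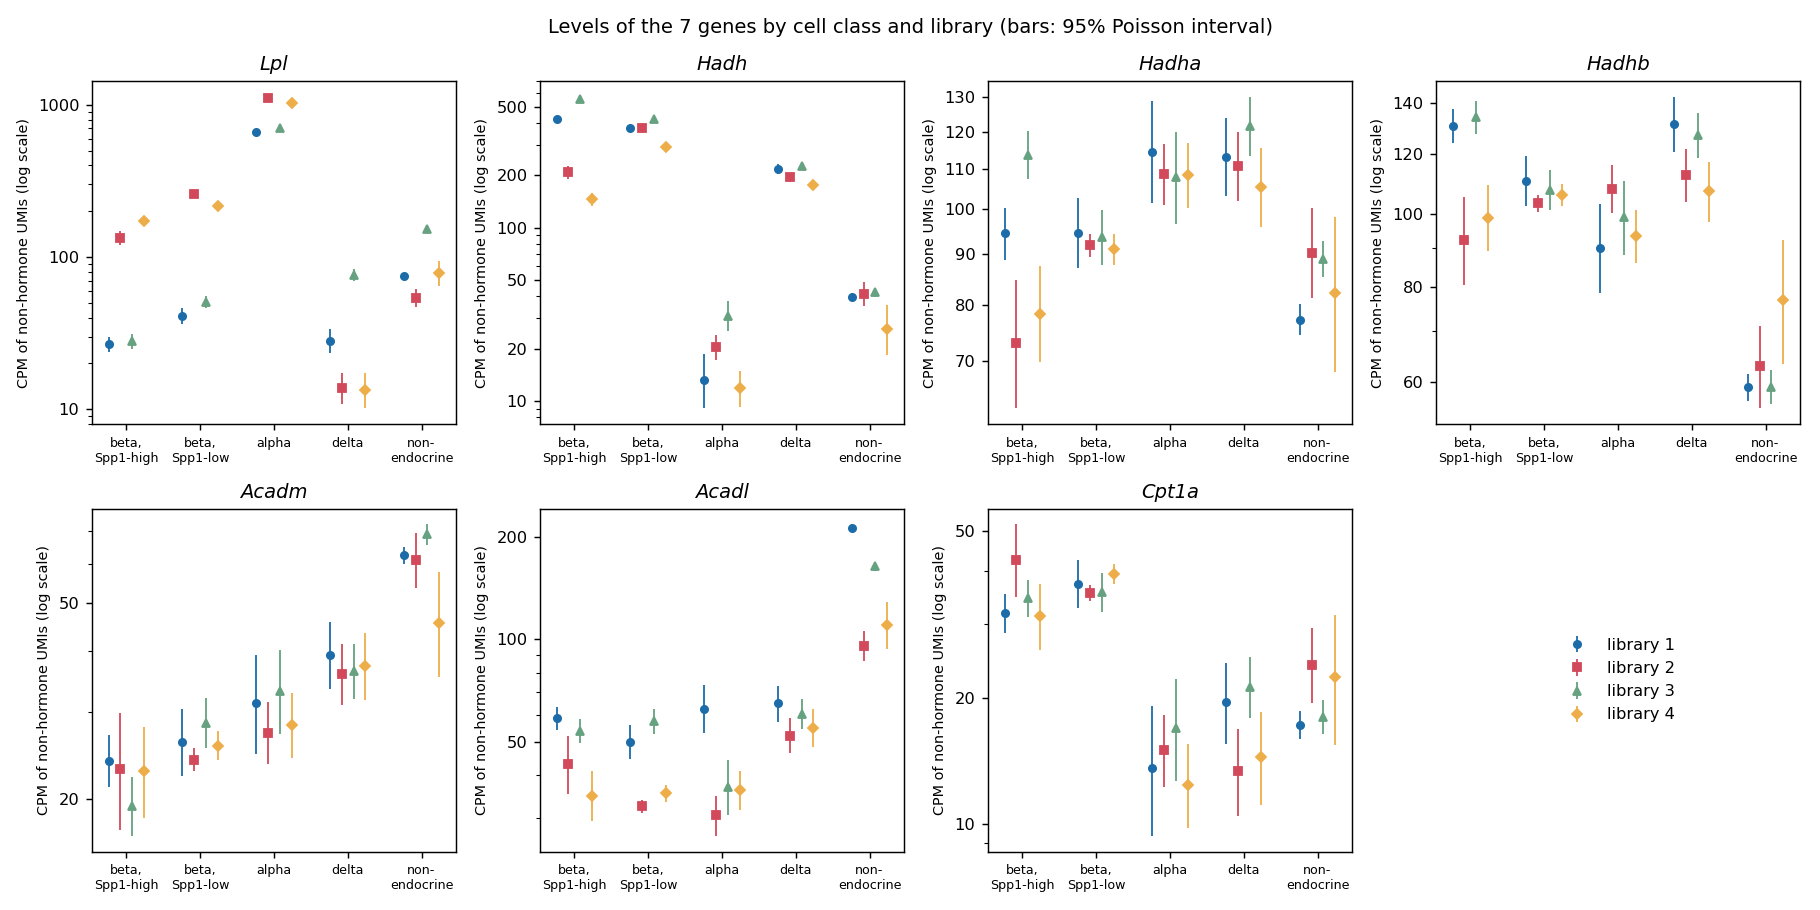
CPM of non-hormone UMIs (log scale) of each of the 7 genes in Spp1-high and Spp1-low beta cells, alpha cells, delta cells and non-endocrine cells, with 1 point per library and exact 95% Poisson intervals as bars. Lpl was highest in alpha cells (663 to 1107 CPM), Hadh was lowest there (11.8 to 30.9 CPM), and Hadha lay between 73.1 and 122 CPM throughout.

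Between libraries, Lpl in all beta cells stood at 31.8, 255, 38.8 and 213 CPM. After 10 CPM was added, the highest library exceeded the lowest by 2.66 log2 units, rank 36 of 6966 genes, of which 0.919% ranged by 4-fold or more and whose median range was 0.28. With hormone genes kept in the total the range was 2.02. The range was 2.32 in Spp1-high cells and 2.41 in Spp1-low cells, against 0.73 in alpha cells, where library 2 was again highest and library 1 lowest. That alpha cell range still ranked 221 of 7120 genes, whose median range was 0.23. In Spp1-high cells 1.51% of genes ranged by 4-fold or more, in Spp1-low cells 0.773% and in alpha cells 0.646%. Lpl ranged by 1.89 in delta cells and 1.35 in non-endocrine cells. With 10 CPM added, none of the 7 genes ranged by 4-fold or more there, beside 0.799% and 5.96% of genes. Without the added 10 CPM, Lpl in delta cells differed by 5.74-fold between library 3, the highest, and library 4, the lowest.

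The difference between libraries was also seen within bins of Ins2 share. Among beta cells with Ins2 at 20 to 30% of UMIs, Lpl stood at 37.9, 264, 43.3 and 192 CPM in 108, 458, 166 and 349 cells. Among those at 30 to 40% it stood at 54.9, 256, 36.6 and 223 CPM. The median Ins2 share of beta cells itself was 17.0%, 35.7%, 18.7% and 34.9%, and the median number of detected genes 6233, 4932, 6311 and 4634. The part of depth and hormone content in the remaining difference was not tested.

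Within libraries, Spp1-high beta cells had less Lpl than Spp1-low beta cells. Spp1 encodes osteopontin, a secreted matrix protein. The log2 ratio of Spp1-high over Spp1-low was -0.47, -0.91, -0.67 and -0.31, with a median of -0.57. It was below 0 in 4 of 4 libraries, as was that of 22.8% of 6940 genes, while 8.18% were above 0 in every library. The median for Lpl was -0.34 when hormone genes were counted in the total. None of the 7 genes was higher or lower by 2-fold or more in every library, as 0.0576% of 6940 genes were in the higher and 0.0432% in the lower direction. By Spp1 share, Lpl in library 2 stood at 272 CPM below 0.1%, 182 CPM at 0.25 to 0.5% and 106 CPM at 1 to 2%. In library 4 it stood at 228, 170 and 141 CPM in the same bins, in library 1 at 43.6, 22.8 and 24.4 CPM, and in library 3 at 56.2, 36.2 and 27.2 CPM. The fall was not steady: at 0.1 to 0.25% library 1 held 51.7 CPM, and at 0.5 to 1% library 4 held 201 CPM. In every one of these bins libraries 2 and 4 lay above libraries 1 and 3.

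Just above the split, at Spp1 of 0.5 to 0.6%, Lpl stood at 34.1, 115, 12.9 and 212 CPM in 8, 27, 19 and 33 cells. Just below it, at 0.4 to 0.5%, it stood at 24.5, 189, 35.6 and 168 CPM in 9, 37, 24 and 49 cells. The 9 macrophage markers summed to 69.7, 50.6, 47.9 and 52.5 CPM in Spp1-high cells of libraries 1 to 4. In Spp1-low cells they summed to 213, 68.2, 128 and 56.6 CPM. None of the 9 was at 0 in all libraries of either class. In Spp1-high cells of libraries 2 and 4, however, C1qb, Adgre1 and Csf1r were at 0. Most of the sum there was C1qa, at 14.6 and 12.8 CPM, and Cd68, at 33.0 and 38.8 CPM. Macrophages are a known source of the lipase. Without cells of 2 or more macrophage markers the ratio was -0.47, -0.88, -0.27 and -0.35, with a median of -0.41. With all cells kept, 3 cells of library 3 held 27.7% of the Lpl UMIs of its Spp1-low cells. In that library the cells without other hormones or macrophage markers held 28.6 CPM when Spp1-high and 33.4 CPM when Spp1-low, with intervals that overlapped (25.2 to 32.3 and 29.4 to 37.8), so the difference there was within counting error. The part of macrophage transcripts in the ratio was not tested.

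**Figure D2:**
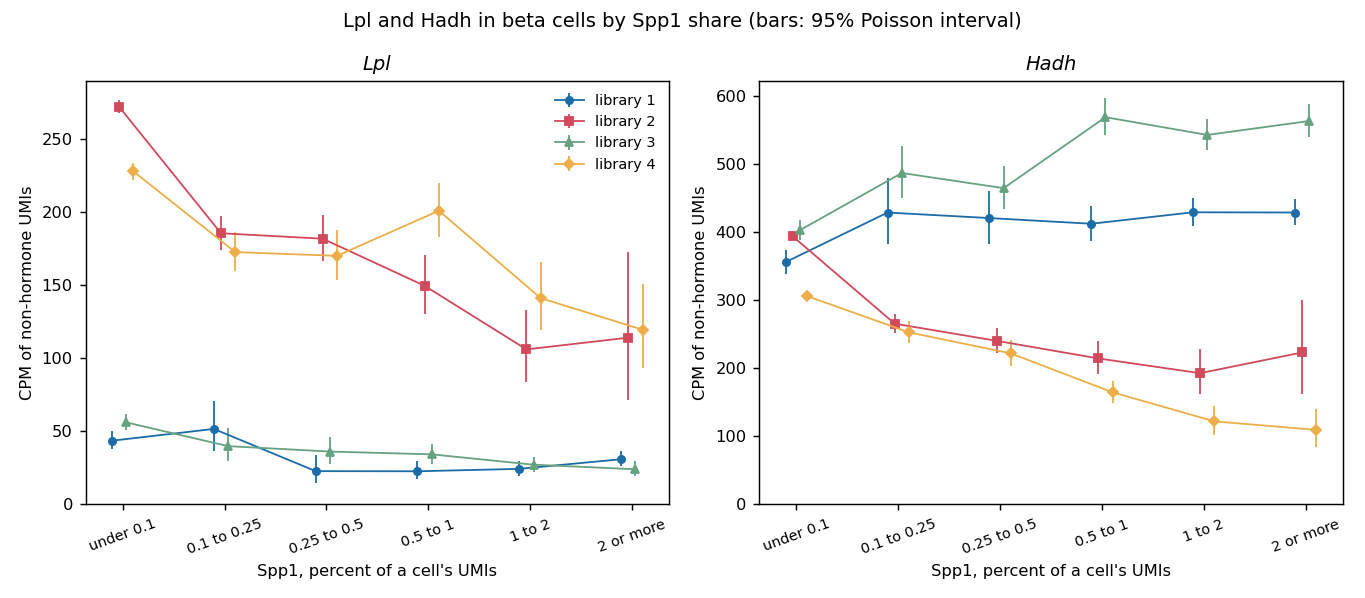
CPM of non-hormone UMIs of Lpl (left) and Hadh (right) in beta cells, by the share of UMIs from Spp1 in each cell, with 1 line per library and exact 95% Poisson intervals as bars. Lpl was lower above 1% Spp1 than below 0.1% in every library, while Hadh was lower at high Spp1 in libraries 2 and 4 and higher in libraries 1 and 3.

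Delta cells gave 28.2, 13.8, 76.5 and 13.3 CPM of Lpl, but these sums rested on few cells. Lpl was at 0 in 90.0%, 91.5%, 94.9% and 94.3% of delta cells, and the 3 cells with most held 57.3%, 35.1%, 85.2% and 36.2% of all Lpl UMIs. In library 3 those 3 cells carried 7 to 9 of the 9 macrophage markers. The 772 delta cells without another hormone at 1% or 2 macrophage markers held 5.83, 5.86, 1.51 and 1.47 CPM. At the Gcg ratio of alpha cells 1.05, 2.82, 0.749 and 1.46 CPM would be carried over into these cells, and at the Ins2 ratio of beta cells 0.133, 3.09, 0.136 and 1.71 CPM. In library 4 the measured level lay between the 2 estimates, and in libraries 1, 2 and 3 above each of them. In library 2 the estimates added together come to about the measured level, so Lpl in these cells of libraries 2 and 4 is not separated from carry-over. In libraries 1 and 3 only 2.70% of 148 and 0.873% of 229 of these cells had an Lpl UMI before thinning. Those levels rest on too few cells to be set apart from carry-over either.

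The same cut left alpha cells at 684, 1044, 768 and 1047 CPM of Lpl, and beta cells at 25.7, 254, 30.7 and 211 CPM. Pancreatic polypeptide cells, chosen by Ppy at 3% of UMIs, numbered 21, 74, 35 and 57 and held 203, 253, 186 and 227 CPM. Their level lay below alpha cells in every library. It lay above Spp1-low beta cells in libraries 1 and 3, while in libraries 2 and 4 the Poisson intervals of the 2 classes overlapped.

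Outside the endocrine cells, macrophage-like cells held 499.9, 107, 823 and 135 CPM of Lpl. Here libraries 1 and 3 were above libraries 2 and 4, the reverse of beta and alpha cells. Lpl was found in 35.6%, 23.4% and 49.2% of thinned macrophage-like cells of libraries 1, 2 and 3. Pericyte-like cells held 244, 115, 433 and 310 CPM, from only 20 to 26 cells per library, where 1 cell held 23.5% to 56.8% of the Lpl UMIs, with none of the 7 pericyte markers among the 10 genes that led the class. Fibroblast-like cells held 188 CPM in library 1 and 215 CPM in library 3. T cell-like cells held 0.805, 4.53 and 1.40 CPM in libraries 1 to 3, and B cell-like cells 3.48 and 0.903 CPM in libraries 1 and 3. Lpl was thus higher in alpha than in macrophage-like and fibroblast-like cells in library 1, and higher in macrophage-like than in alpha cells in library 3.

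**Figure D3:**
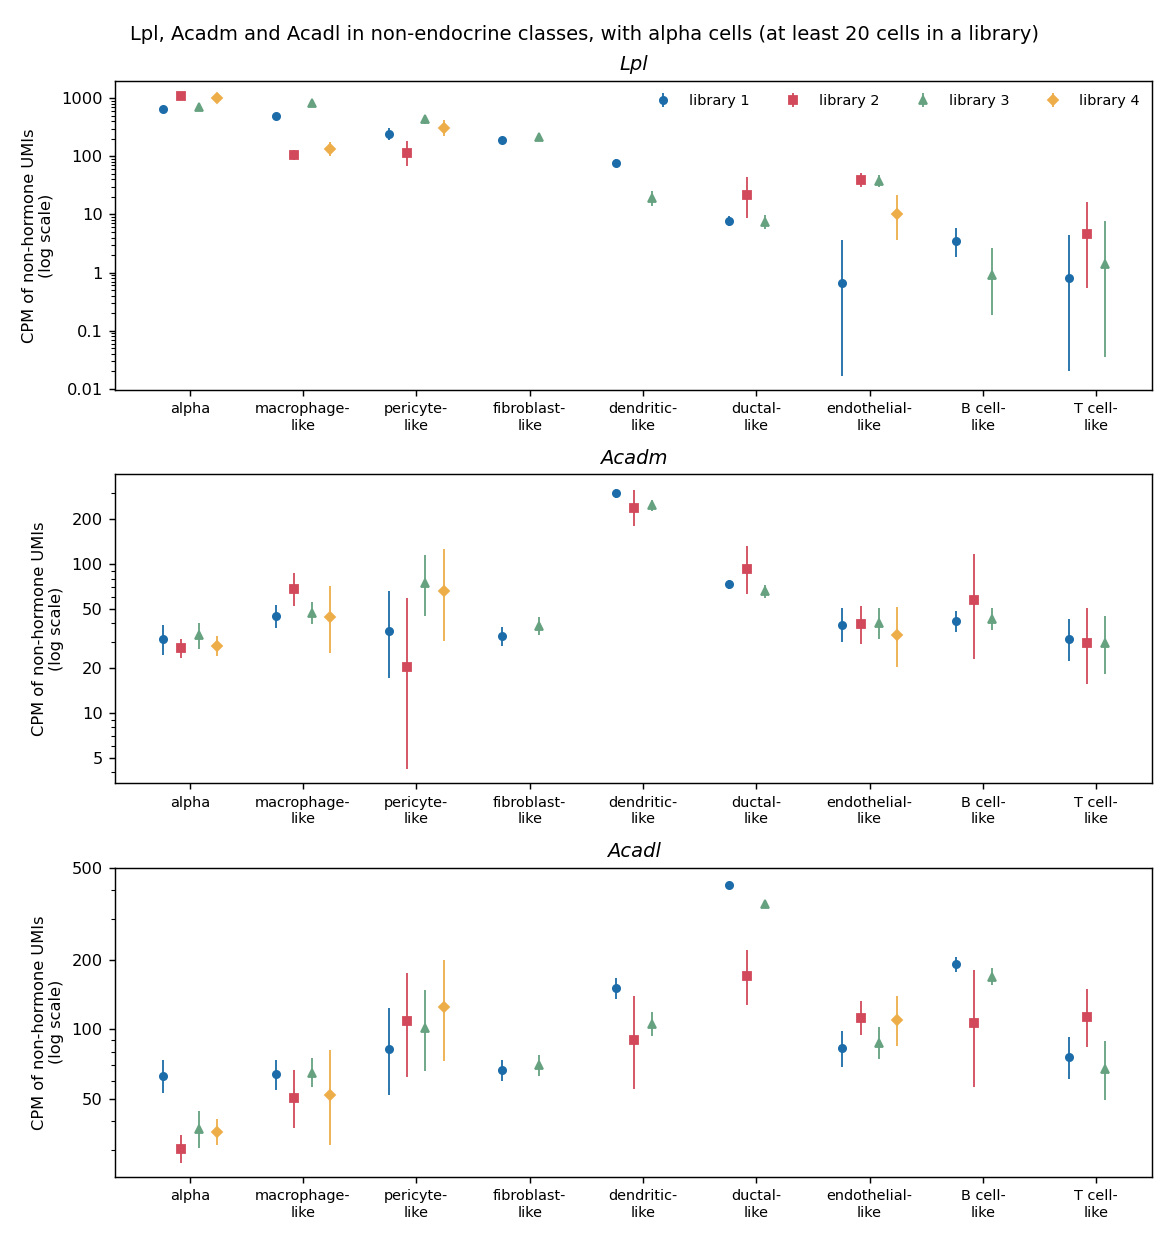
CPM of non-hormone UMIs (log scale) of Lpl, Acadm and Acadl in alpha cells and 8 non-endocrine classes, with 1 point per library of at least 20 cells, levels of 0 left out, and exact 95% Poisson intervals as bars. Lpl was high in macrophage-like cells, Acadm in dendritic-like cells and Acadl in ductal-like cells.

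Genes that mature, carry or inhibit the lipase were looked at from a list of 12, of which 3 averaged at least 20 CPM over beta and alpha cells. Sorl1, a sorting receptor that binds the lipase, was higher in beta than alpha cells by a median log2 ratio of 2.88. It stood at 130, 167, 146 and 133 CPM in Spp1-high and 110, 129, 120 and 126 CPM in Spp1-low beta cells, against 9.47, 7.79, 18.5 and 6.51 CPM in alpha cells. Sorl1 thus passed the 20 CPM average through beta cells alone. Sel1l, an endoplasmic reticulum protein needed for the lipase to leave that compartment, was higher by 1.04, and Furin, a protease that cleaves the lipase, was lower by a ratio of -0.48. Delta cells held Sorl1 at 156, 133, 166 and 127 CPM. Any link between these genes and the level of Lpl was not tested.

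The capillary carrier of the lipase, Gpihbp1, was found in endothelial-like cells at 60.3, 429, 60.3 and 412 CPM. It was at 0 in macrophage-like cells of all 4 libraries. Its libraries lay in the same order as Lpl in beta cells, with libraries 2 and 4 above libraries 1 and 3. Lpl in endothelial-like cells stood at 0.663, 39.4, 38.0 and 10.00 CPM, but 1 cell held 45.8% of its UMIs in library 2 and 52.9% in library 3. The lipase activator Apoc2 stood at 14.5 and 11.0 CPM in macrophage-like cells of libraries 2 and 4, and at 0.355 and 0.685 CPM in those of libraries 1 and 3.

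Cpt1a (chromosome 19, 3322334 to 3385733, plus strand), the outer carnitine gate of mitochondria, was higher in beta cells than in the other hormone classes. It stood at 31.7, 42.6, 34.5 and 31.3 CPM in Spp1-high and 37.4, 35.5, 35.7 and 39.5 CPM in Spp1-low beta cells. Alpha cells held 13.6, 15.0, 16.9 and 12.4 CPM and delta cells 19.5, 13.4, 21.2 and 14.5 CPM, so beta cells did not overlap either class. The log2 ratio over alpha cells was 0.89, 0.87, 0.74 and 1.12, and over delta cells 0.57, 0.97, 0.53 and 0.99. With hormone genes in the total these medians were 0.51 and 0.32, still above 0 in 4 of 4 libraries.

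Across libraries Cpt1a ranged by only 0.15 log2 units in beta cells. The Spp1-high over Spp1-low ratio was -0.18, 0.21, -0.04 and -0.26, with no common sign. Macrophage-like cells held 42.2, 28.9, 43.1 and 38.5 CPM, and dendritic-like cells 10.8 and 9.04 CPM in libraries 1 and 3. In non-endocrine cells as a whole it stood at 17.2, 24.0, 18.0 and 22.4 CPM. Beta cells were higher by a median log2 ratio of 0.63, but the ratio was -0.063 when hormone genes were counted in the total.

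The medium-chain acyl-CoA dehydrogenase gene Acadm (chromosome 3, 153922357 to 153944632, minus strand) varied least of the 7 between libraries over all beta cells. It stood at 23.9, 23.0, 19.3 and 22.8 CPM in Spp1-high and 26.2, 24.1, 28.6 and 25.6 CPM in Spp1-low beta cells. Alpha cells held 31.3, 27.3, 33.2 and 28.3 CPM and delta cells 39.2, 35.9, 36.3 and 37.2 CPM. Its log2 ratio over delta cells was -0.50, -0.43, -0.46 and -0.42, and the range in beta cells over libraries was 0.07. Dendritic-like cells stood apart with 298, 239.6 and 248 CPM in libraries 1 to 3.

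The long-chain acyl-CoA dehydrogenase gene Acadl (chromosome 1, 66830839 to 66863277, minus strand) was higher in non-endocrine cells as a whole than in beta, alpha or delta cells. Non-endocrine cells held 213, 95.7, 164 and 110.1 CPM. Ductal-like cells of libraries 1, 2 and 3 held 424, 170.1 and 350.0 CPM, with 648, 26 and 340 cells. B cell-like cells held 192 and 169 CPM in libraries 1 and 3. The makeup of the non-endocrine sums differed between libraries: ductal-like cells were 648 of 2309 non-endocrine cells in library 1 and 9 of 181 in library 4.

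Among endocrine cells Acadl was lower. It stood at 58.6, 43.0, 53.9 and 34.8 CPM in Spp1-high and 50.1, 32.4, 57.6 and 35.3 CPM in Spp1-low beta cells. Alpha cells held 62.6, 30.4, 37.0 and 36.1 CPM and delta cells 65.0, 52.3, 60.6 and 55.1 CPM. In beta cells libraries 1 and 3, at 55.6 and 55.7 CPM, lay above libraries 2 and 4, at 32.8 and 35.3 CPM, the reverse of Lpl. This range of 0.62 log2 units ranked 1114 of 6966 genes. The ratio of beta over alpha cells had no common sign.

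Beta cells were lower than non-endocrine cells by a median log2 ratio of -1.06 in Acadm and -1.41 in Acadl. Of the 7 genes, Acadl was lower by 2-fold or more in every library, as were 8.77% of 7215 genes. Hadh was higher by that measure, as were 12.6%.

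Hadha (chromosome 5, 30118304 to 30155162, minus strand) and Hadhb (chromosome 5, 30155248 to 30184593, plus strand) encode the alpha and beta subunits of the mitochondrial trifunctional protein, which carries out the last 3 steps of each round on long chains. Both were nearly flat over the hormone classes. Hadha stood at 94.5, 73.1, 114 and 78.3 CPM in Spp1-high and 94.7, 91.9, 93.7 and 91.0 CPM in Spp1-low beta cells, against 114, 109, 108 and 108 CPM in alpha cells and 113, 111, 122 and 105 CPM in delta cells. Hadhb stood at 131, 92.4, 134 and 98.8 CPM in Spp1-high and 111, 103, 108 and 106 CPM in Spp1-low beta cells, against 90.2, 108, 98.9 and 93.4 CPM in alpha cells and 131, 112.5, 127 and 107 CPM in delta cells.

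Spp1-low beta cells of the 4 libraries differed by 0.05 log2 units in Hadha and 0.09 in Hadhb, beside a median of 0.27 over 6988 genes. Spp1-high cells differed by 0.57 and 0.49, with libraries 1 and 3 above libraries 2 and 4 in both genes. The log2 ratio of beta over alpha cells was -0.25, -0.23, -0.05 and -0.25 in Hadha and 0.41, -0.06, 0.27 and 0.15 in Hadhb. Hadhb thus had no common sign, and its median of 0.21 became -0.20 with hormone genes in the total.

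The balance of the 2 subunit transcripts differed between several cell types, and in B cell-like cells also between libraries. The log2 ratio of Hadha over Hadhb UMIs was -0.39, -0.17, -0.22 and -0.23 in beta cells, with counting errors of 0.03 to 0.05. In alpha cells it was 0.34, 0.01, 0.12 and 0.21 and in delta cells -0.22, -0.02, -0.07 and -0.02. Macrophage-like cells reached 1.01, 1.00 and 0.86 in libraries 1 to 3, and dendritic-like cells 1.08 and 1.04 in libraries 1 and 3. Counting errors were 0.07 to 0.13 in alpha and delta cells and 0.14 to 0.27 in macrophage-like and dendritic-like cells. Ductal-like cells had 0.53 in both of those libraries. B cell-like cells had 0.05 in library 1 and 0.80 in library 3, with counting errors of 0.12 and 0.14. The ratio was thus not the same in every library of a class. How many UMIs a transcript yields depends on the gene, so only the change of this ratio between classes is read, not its sign within a class.

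Against non-endocrine cells, beta cells were higher by a median log2 ratio of 0.16 in Hadha and 0.78 in Hadhb. Counting hormone genes in the total made these -0.68 and -0.083, and Hadha was also below 0 with another scaling, so neither gene has a settled direction there.

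Hadh (ENSMUSG00000027984, chromosome 3, 131233419 to 131272101, minus strand) encodes the mitochondrial dehydrogenase of short-chain 3-hydroxyacyl-CoA. It was high in beta cells, intermediate in delta cells and low in alpha cells, where Lpl was highest. Spp1-high beta cells held 425, 209, 557 and 145 CPM and Spp1-low beta cells 376, 375, 425 and 294 CPM. Alpha cells held 13.2, 20.3, 30.9 and 11.8 CPM, and delta cells 217, 196, 227 and 176 CPM. Every beta value of the Spp1-low class lay above every delta value, and every delta value above every alpha value.

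The log2 ratio of beta over alpha cells was 4.17, 3.64, 3.62 and 3.73, with a median of 3.68. Of the 7 genes Hadh alone was higher by 2-fold or more in every library, as were 3.47% of 7166 genes, and this comparison was used to choose it. At the Ins2 ratio, 2.10, 7.96, 6.35 and 3.26 CPM would reach alpha cells from beta cells by carry-over, which is below the measured level in each library. Alpha cells without another hormone at 1% or 2 macrophage markers held 13.7, 14.1, 15.3 and 9.29 CPM.

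After thinning, 79.4%, 48.4%, 86.7% and 43.7% of Spp1-high and 82.2%, 72.2%, 81.6% and 66.8% of Spp1-low beta cells had Hadh (78.6% to 96.1% and 87.7% to 93.6% before thinning). In alpha cells the share was 4.69%, 8.66%, 8.33% and 5.97% (8.80% to 15.4% before), and in delta cells 57.7%, 56.0%, 60.5% and 55.5% (75.2% to 87.7% before). Non-endocrine cells held 39.8, 41.4, 42.2 and 25.8 CPM.

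Against delta cells the ratio was 0.88, 0.88, 1.09 and 0.63, with a median of 0.88. With hormone genes in the total it was 0.33, and below 0 in library 4. None of the 7 genes was higher or lower by 2-fold or more than in delta cells in every library, beside 2.57% and 2.56% of 7079 genes. Alpha cells were lower than delta cells in Hadh by -3.29, -2.76, -2.54 and -3.10, and higher in Lpl by 4.14, 5.55, 3.05 and 5.47. These were the members past 2-fold in every library in that comparison, beside 3.44% of 7143 genes lower and 2.95% higher.

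Hadh differed with Spp1 in opposite directions in different libraries. The log2 ratio of Spp1-high over Spp1-low beta cells was 0.17 and 0.38 in libraries 1 and 3, but -0.82 and -0.97 in libraries 2 and 4. Among cells with 20 to 30% Ins2 the ratio was 0.41, -0.63, 0.55 and -0.88, with as few as 22 Spp1-high cells in library 2. Along the bins, library 4 held 306 CPM below 0.1% Spp1, 222 CPM at 0.25 to 0.5% and 122 CPM at 1 to 2%. Library 2 held 393, 240.2 and 193 CPM in the same bins. Library 1 held 356, 420.3 and 429 CPM, and library 3 held 403, 464 and 542 CPM.

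The beta cell transcription factor Pdx1 lay in the same order over the Spp1-high cells, at 237, 106, 285 and 104 CPM. In Spp1-low cells it stood at 195, 176, 183 and 156 CPM. Spp1-high cells were 131 of 3342 beta cells in library 2 and 219 of 2221 in library 4, so the low Hadh of those libraries rests on fewer cells. The 4 neutrophil markers summed to 0.269, 685, 0 and 134 CPM in Spp1-high cells, against 0.160, 17.0, 0.300 and 19.5 CPM in Spp1-low cells, most of it S100a9, with Csf3r and Retnlg at 0 in Spp1-high cells. The part of these markers in the Hadh ratios was not tested.

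Glud1, the glutamate dehydrogenase that Hadh protein is known to bind and inhibit, had the opposite pattern over alpha and beta cells. It stood at 229, 121, 218 and 117 CPM in Spp1-high and 202, 134, 205 and 123 CPM in Spp1-low beta cells, against 332, 335, 334 and 326 CPM in alpha cells. The beta over alpha ratio was -0.57, -1.26, -0.63 and -1.34. Delta cells, at 189.9, 149.9, 189 and 138 CPM, lay close to beta cells.

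The wider pathway was read from a list of 25 genes of the carnitine shuttle and mitochondrial oxidation, 16 of which averaged at least 20 CPM over beta and alpha cells. In beta over alpha cells 6 were higher and 2 lower by any amount in every library, as were 37% and 34.7% of all 7166 genes counted. The median of the list was 0.29, 0.07, 0.24 and -0.03 in libraries 1 to 4, or 0.15 over them, beside 0.02 over all genes. With hormone genes in the total it was -0.20, where the median gene lay at -0.35. After Hadh and Cpt1a, the electron acceptor subunit Etfb (0.56) and the hydratase Echs1 (0.32) were highest, and Hadha (-0.24) and Acadm (-0.19) were the lower members. Echs1 became -0.16 on that total.

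**Figure D4:**
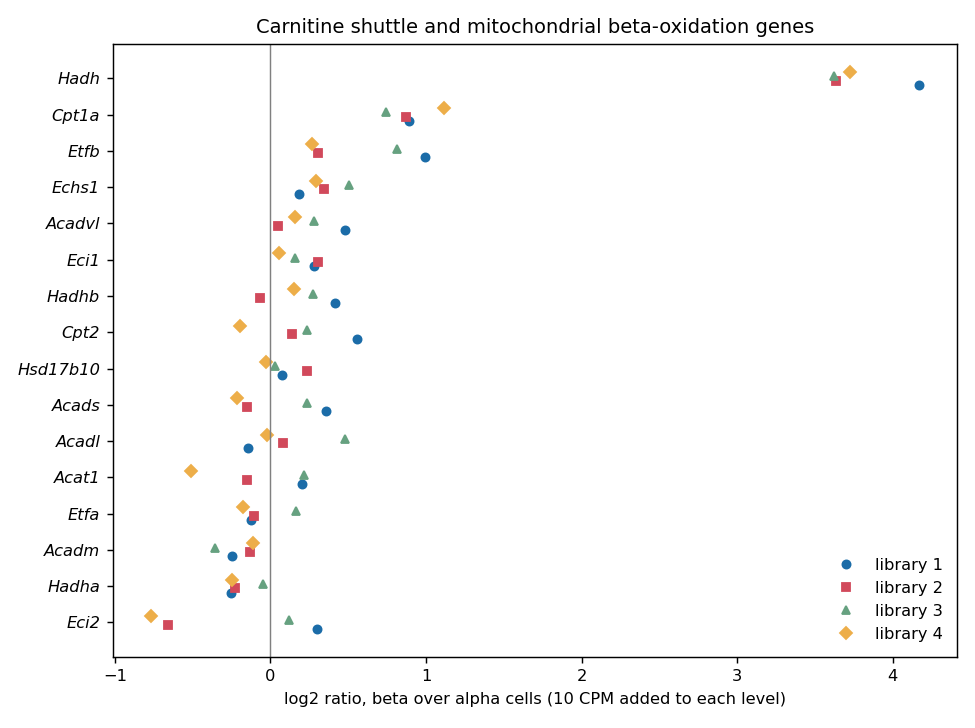
Log2 ratio of beta over alpha cells (10 CPM added to each level) for the 16 measured genes of the carnitine shuttle and mitochondrial oxidation, with 1 point per library. Hadh lay between 3.62 and 4.17, Cpt1a between 0.74 and 1.12, and the other genes within 1 log2 unit of 0.

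Against delta cells 17 of the 25 genes were counted, 4 higher and 8 lower by any amount in every library, as were 36.4% and 28.8% of all 7079 genes, with a list median of -0.10. The ketone body and isoleucine thiolase Acat1 was highest at 1.20, ahead of Hadh, Cpt1a (0.77) and Cpt2 (0.54), the inner carnitine transferase. Between Spp1-high and Spp1-low beta cells, 0 of 16 were higher and 2 were lower by any amount in every library, Acadm (-0.11) and Eci1 (-0.10), as were 8.18% and 22.8% of all 6940 genes, and the median was -0.03 beside -0.05 over all genes.

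The remaining lists are read against the same shares of 37% higher and 34.7% lower in beta than alpha cells of every library. For 2-fold or more, the shares of the 7166 genes were 3.47% higher and 2.74% lower. Of 12 genes of peroxisome proliferator-activated receptors and their targets 4 were counted, and all 4 were lower in beta cells in every library, 2 of them by 2-fold or more. Pdk4, a kinase that shuts off pyruvate dehydrogenase, stood at 1.26, 0.418, 0.547 and 2.00 CPM in Spp1-high and 1.12, 1.89, 2.30 and 0.899 CPM in Spp1-low beta cells, against 123, 161, 125 and 152 CPM in alpha cells. Pdk4 thus passed the 20 CPM average through alpha cells alone, which fixed its direction in advance. Nothing is read from the count of lower genes on this list. The mitochondrial carrier Ucp2 (-1.73), Rxra (-0.85) and Ppard (-0.45) followed Pdk4. Like Lpl, Pdk4 is a known target of these receptors. Unlike Lpl, it was as low in beta cells of libraries 2 and 4 as in those of libraries 1 and 3, and it stood at 0.916 to 3.53 CPM in delta cells.

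Of 11 fatty acid synthesis genes 10 were counted, 8 of them lower, 2 of these by 2-fold or more, and 1 higher in beta cells in every library, with a median of -0.64. Scd1 (-1.93) and Scd2 (-1.32), which desaturate fatty acids, the synthase Fasn (-1.54) and the elongase Elovl6 (-0.75) led the lower genes. Of 13 peroxisomal genes 7 were counted, 2 higher and 0 lower, with Crot (1.15), the carnitine transferase of peroxisomes, ahead of the transporter Abcd3 (0.34). Crot stood at 94.9, 46.3, 100.2 and 41.2 CPM in beta cells, and so was higher in libraries 1 and 3 in the way of Acadl. Of 13 uptake and activation genes 6 were counted, with Acsl5 (0.70), which activates long chains, higher and Slc27a4 (-0.12) lower.

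Other lipases showed smaller differences. Of 10 genes 3 were counted, with Pnpla2 (-0.42), the lipase of stored triglyceride, lower in beta cells and its activator Abhd5 (0.35) higher in every library. Abhd5 had a ratio of 0.0034 when hormone genes were counted in the total. Against delta cells, beta cells had less of the fatty acid binding genes Fabp5 (-2.25) and Fabp3 (-1.09) and more Acsl5 (1.10) and Crot (1.38). Ucp2 was also lower in Spp1-high than in Spp1-low beta cells (-0.82), at 88.0, 77.7, 91.2 and 80.0 CPM against 172, 137, 189 and 107 CPM in libraries 1 to 4.

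Genes with a like pattern were ranked over 16 points, the beta, alpha, delta and non-endocrine cells of 4 libraries, among 6146 genes. The points share libraries and cell classes, so the correlations only describe. Lpl was most like the glycosyltransferase Galnt2 and the amino acid transporter Slc7a8 (r = 0.93 each), followed by mt-Nd1 (0.89), Rrp7a (0.89) and mt-Nd3 (0.89). Alpha cells, where Lpl was highest, also had the highest mitochondrial share, with a median of 3.37% to 3.74% of UMIs, against 1.74% to 2.11% in beta and 1.43% to 1.78% in delta cells. The part of RNA quality in these ratios was not tested. With cells limited to 10% mitochondrial UMIs and at least 1000 genes, the median beta over alpha ratio of Lpl was -3.05 and that of Hadh 3.71.

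Hadh was most like Pdx1 (r = 0.98), Uqcrc2 (0.98) and Cox8a (0.97), and Cpt1a most like Tifa (0.96) and Aff1 (0.96). Among the genes most like Acadm were the ribosomal protein genes Rps15a, Rps9 and Rps16 (r = 0.98 each). Acadl was most like Golm1 (0.97) and Tspo (0.96), Hadha like Hp1bp3 (0.96) and Hadhb like Ctsf (0.96). Among the members themselves, Acadm and Acadl went together (r = 0.88), Hadha and Hadhb had r = 0.69, and Lpl and Hadh had r = -0.63.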

How the data were processed

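The deposited values are UMI counts per gene and barcode, which the authors made with Cell Ranger 6.1.2, per the file headers. The submitters' processing notes give the same version and mm10; for the annotation, not given in the sources used here, no release was assumed. The labels do not say which transcript end was read, so levels were not compared between genes. Coordinates came from GENCODE M21 (GRCm38) and promoters from RefSeq.

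The 7 genes, the gene lists and the markers were chosen with earlier results of these data known. Cells under every hormone gate were named from markers when at least 2 were detected and the best list scored 1.5 times the next; 319 stayed unresolved. Such names rest on markers alone, and neither these cells nor 88 low-hormone endocrine cells enter a comparison. UMIs were summed per class and library. The 7 genes left out of the total were Ins1, Ins2, Gcg, Sst, Ppy, Pyy and Iapp, which took 40.0% to 57.7% of the UMIs of beta cells. Leaving them out moved the median gene, beta over alpha cells, to 0.02, against -0.35 with them. Ratios are log2 with a pseudocount of 10 CPM, which understates low genes, and gene counts and background shares cover genes averaging 20 CPM or more over both classes. A gene high in only 1 of the 2 classes can pass that average, as Pdk4 and Sorl1 did. From each list up to 4 genes with the largest median ratio and 1 sign in every library were named; those given for a single class, Gpihbp1 and Apoc2 among them, were chosen after their values were seen. Per-cell shares were taken after thinning to 5000 UMIs (seed 1). No p-value is given, because cells are not replicates. Poisson and Clopper-Pearson intervals are exact. Alternatives covered the total, the cell filter, cells of mixed hormones, the mean over cells, the pseudocount, the low-value filter, the Ins2 gate, the Spp1 split, TMM factors (edgeR 4.0.16, R 4.3.3) and leaving out each library. Others, chosen after seeing the data, left out cells with macrophage markers or kept beta cells with Ins2 at 20 to 30%. Ratios were also tested on simulated data. Python 3.11.15, numpy 2.4.6, scipy 1.17.1, pandas 2.3.3 and matplotlib 3.10.9 were used.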

Additional observations from a re-analysis of the deposited data

Results flagged for a closer look

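Signal of all 7 genes lay in the 3841 barcodes that failed the cell filter and entered no comparison. These barcodes held 462 UMIs of Lpl, 347 of Hadh, 173 of Hadha, 151 of Hadhb, 52 of Acadm, 58 of Acadl and 42 of Cpt1a. Each sum is above the 3 UMIs that a count of 0 allows. Library 2 held 2222 of these barcodes and 302 of the Lpl UMIs. These barcodes had too few genes or too many mitochondrial UMIs to be placed in a class.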

How the results depend on the processing

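No paired analysis was possible because the barcode numbers are not tied to samples. Of 419 values recomputed under 16 settings, 371 moved by less than the spread over libraries (1 SD), 44 moved further, and 4 ratios with 1 sign in every library turned. In all 25 had another sign than the value reported, the other 21 having libraries of both signs. Among these, Lpl in beta over non-endocrine cells, at 0.16, was -1.03 without library 2 or 4 and -0.66 with hormone genes in the total, and Hadh in Spp1-high over Spp1-low cells, at -0.32, was 0.17 without library 2 or 4. In the 20 to 30% Ins2 window only library 3 had 50 cells of both Spp1 classes, where Hadh was 0.55 and Hadha 0.28. The spread over libraries is wide for Lpl, so small moves do not show a stable median. With hormone genes in the total, the list of fatty acid oxidation genes in beta over alpha cells moved to -0.20, Hadh to 3.05, and beta over non-endocrine ratios turned to -0.68 for Hadha, -0.083 for Hadhb and -0.063 for Cpt1a. Scaling by TMM factors also turned Hadha there, to -0.090. Hadh in beta over alpha cells moved to 4.07 without cells that held another hormone at 1% and to 4.28 with a pseudocount of 1 CPM. The number of genes past 2-fold between beta and alpha cells was 2, and 3 with that pseudocount, when Cpt1a joined; 1.5 times the main count was the limit there.

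Leaving out each library in turn gave -3.88 to -2.22 for Lpl and 3.64 to 3.73 for Hadh in beta over alpha cells, 0.07 to 0.24 for the list, -0.67 to -0.47 for Lpl in Spp1-high over Spp1-low cells and 2.41 to 2.66 for its range in beta cells. Without library 1 or library 3 the list's median was 0.07, and without library 2 or library 4 it was 0.24. Counting error limits low levels, such as Lpl in delta cells without other markers (1.47 to 5.86 CPM), and classes under 50 cells per library.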
